A study of Mus musculus with 30 samples.

Results

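The genes described here encode the receptors, ectoenzymes and transporter through which extracellular nucleotides and adenosine act on a cell. The 9 members were the listed rows P2rx4, P2rx7, P2ry6, Entpd1, Nt5e, Adora2a, Adora2b, Ada and Slc29a1, chosen by name out of 45317 genes in the count tables. All 9 passed the filter on low counts, as did 11566 genes in all. RNA was sequenced from 8 populations of monocytes and macrophages that were sorted from the blood and brain of heterozygous C57BL6.CCR2RFP/WT knock-in mice, 12 to 18 weeks of age, each carrying an intracranial GL261 glioma. GL261 is a mouse glioma line, here with GFP anchored in its membranes, so a sorted brain cell that had taken up tumour membrane was GFPpos and one that had not was GFPneg. The populations were Ly6Chigh and Ly6Clow blood monocytes, glioma monocytes, CCR2high macrophages and CCR2low macrophages, with GFPneg and GFPpos cells sorted separately for each of the brain populations. The blood samples carry a tissue label of brain and were grouped by their titles and cell type, so every comparison of brain with blood rests on those labels. Every mouse bore a tumour and carried 1 red reporter allele at Ccr2, and no population came from a tumour-free mouse. The glioma line was a single line, and only brain tissue was released with enzymes.

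Blood monocytes had 3 replicates per population, as did GFPneg and GFPpos glioma monocytes, and each of the 4 macrophage populations had 4. A replicate was the sorted cells of 1 of 4 mice, numbered 22, 23, 24 and 26. Each of the 28 replicates held 1553616 to 5689644 reads assigned to genes (median 2140230), so a count of 3, taken here as the floor, corresponded to 0.6 to 2.04 CPM (gene counts scaled to a common library size). Ly6c2 averaged 1176 CPM in Ly6Chigh and 123 CPM in Ly6Clow monocytes, and Ccr2 averaged 243 CPM in GFPneg CCR2high and 72.2 CPM in GFPneg CCR2low macrophages. Microglial markers, 8 genes that include Tmem119 and P2ry12, summed to 1652 to 9308 CPM in the brain replicates and to 0.943 to 80.2 CPM in the blood replicates, so they moved with every comparison of brain with blood, and Sall1 was at 0 in all blood replicates. The 7 T cell markers summed to 863 to 1348 CPM in Ly6Clow and to 27.5 to 207 CPM in Ly6Chigh monocytes, and the 6 dendritic cell markers to 578 to 1895 CPM and 100 to 219 CPM. All 7 and all 6 were detected in both populations. T cell markers summed to 290 to 1490 CPM in the brain replicates, with 928 to 1490 CPM in GFPneg CCR2low macrophages. The 5 NK cell markers summed to 0 to 15.7 CPM in Ly6Chigh, 103 to 315 CPM in Ly6Clow and 48.9 to 814 CPM in the brain replicates, with 3 of the 5 detected in Ly6Chigh, so both lists also moved with the comparisons of brain with Ly6Chigh. So did 5 endothelial markers, at 5.43 to 13.5 CPM in Ly6Chigh, 36.3 to 91.4 CPM in Ly6Clow and 19.3 to 166 CPM in the brain. Platelet markers, also 5, summed to 1.88 to 6.44, 0 to 152 and 13.9 to 254 CPM in the same order. For 6 B cell markers the sums were 517 to 768, 847 to 1215 and 122 to 1925 CPM. Of the 2 samples that had been sequenced more than once, the first library of Ly6Clow mouse 23 was left out, since 3460 genes had at least 5 reads there. The library used for that mouse had 6475 such genes and the first of the 2 libraries summed for GFPpos glioma monocytes of mouse 22 had 6969. Spike-in RNA made up 0.779 to 13.3% of the reads assigned to genes and spike-ins in the Ly6Clow replicates and 0.290 to 1.26% in the Ly6Chigh replicates. The part of these differences in the results below was not tested, and in bulk RNA fewer cells of a type cannot be told apart from less RNA per cell.

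ATP that leaves stressed or dying cells opens the P2X channels, of which P2RX4 is the more sensitive and P2RX7 needs high concentrations and leads to inflammasome activation, while UDP is sensed by the G protein-coupled receptor P2RY6. CD39, the product of Entpd1, removes phosphates from ATP and ADP to give AMP, and CD73, the product of Nt5e, converts AMP to adenosine. Adenosine then acts through receptors such as those encoded by Adora2a and Adora2b, which raise cyclic AMP and dampen many leukocyte responses, and it is removed by adenosine deaminase (Ada) or taken up by the nucleoside transporter ENT1 (Slc29a1). These steps are studied widely as a source of immune suppression in tumours.

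Entpd1 RNA was 3.67 to 5.01 times higher in each GFPneg brain population than in either blood population. P2rx4 and P2ry6 were higher in the GFPneg brain populations than in Ly6Clow monocytes, and both adenosine receptors were lower in macrophages than in 1 or both blood populations. Slc29a1 averaged 39.7 and 45.9 CPM in Ly6Chigh and GFPneg glioma monocytes and 99.3 to 143 CPM in the other populations. P2rx7 did not pass the test in any comparison. In an F test over all 8 populations, 6 of the 9 members passed at an adjusted p under 0.05 (P2rx4, P2ry6, Entpd1, Adora2a, Adora2b and Slc29a1), beside 25.1% of all genes tested. P2rx7, Nt5e and Ada did not, with adjusted p of 0.518, 0.101 and 0.383. Among the comparisons of 2 populations, 8 of the 9 members passed in at least 1 of 13, beside 37.2% of all genes. Scaling by spike-in RNA in place of gene counts ended every call against Ly6Chigh, between the blood populations and between brain populations, and 4 of the calls against Ly6Clow. A call here means an adjusted p under 0.05 in the quasi-likelihood test of edgeR, adjusted over all 11566 genes by the method of Benjamini and Hochberg.

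**Figure D1:**
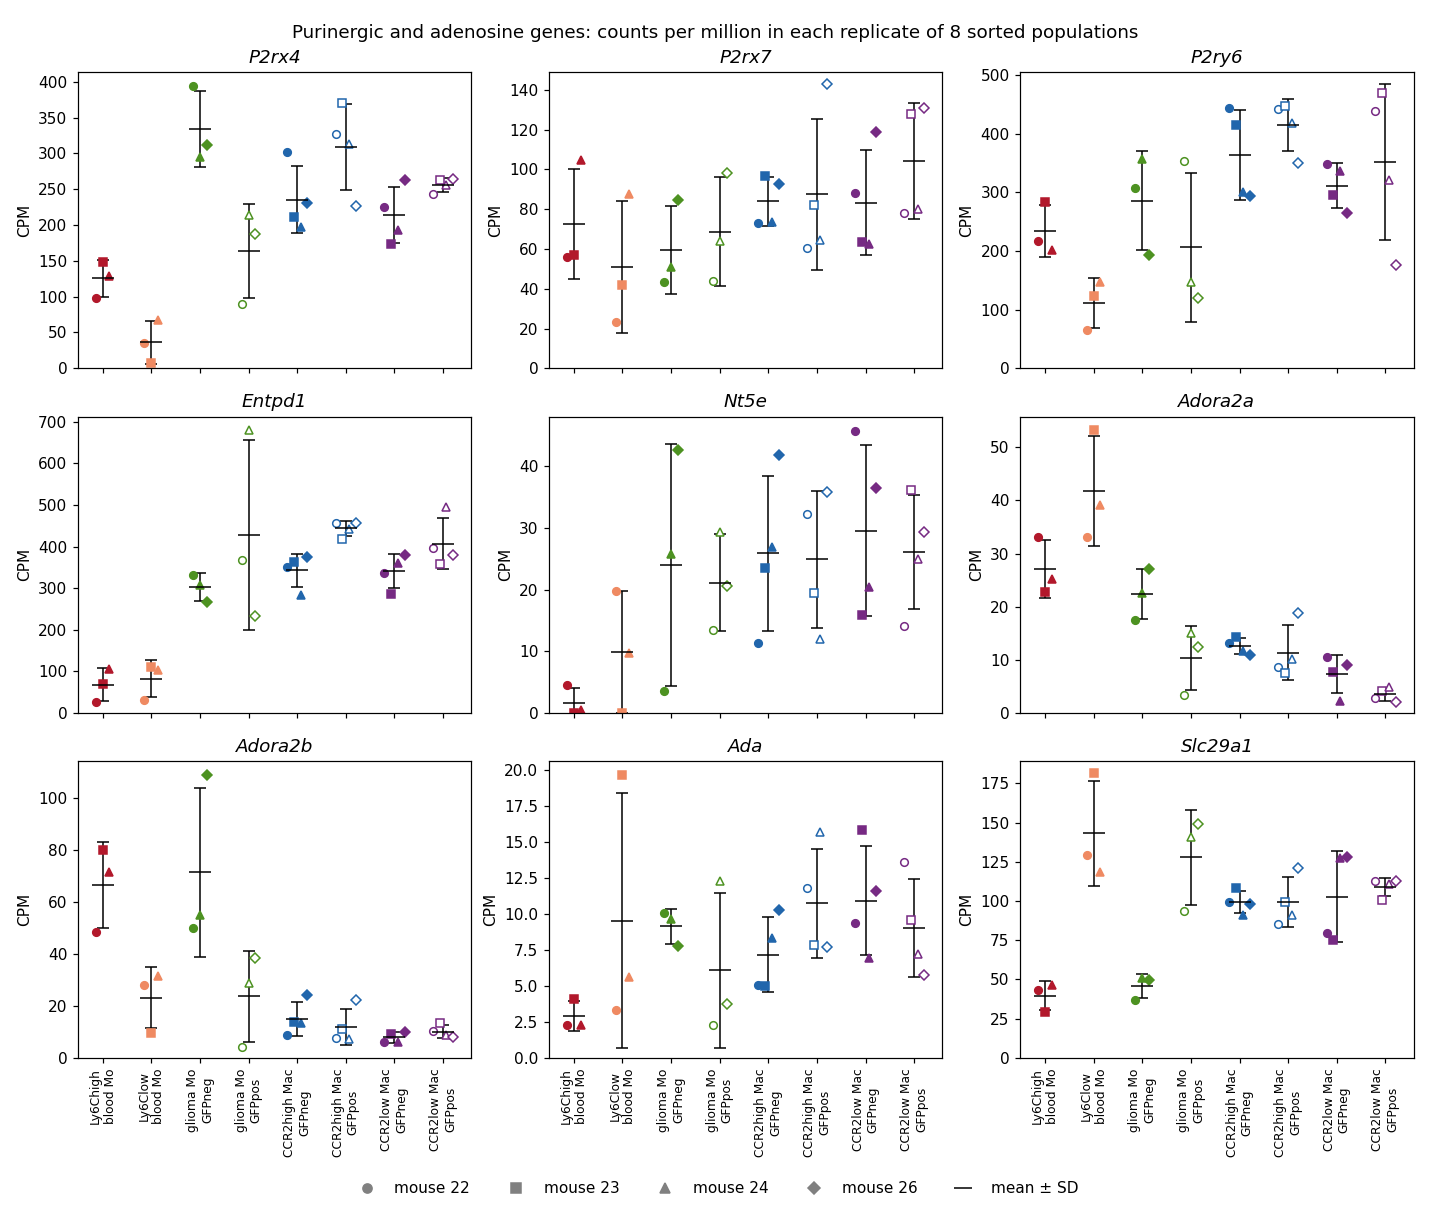
CPM of the 9 members in every replicate of the 8 populations, with linear axes that start at 0; marker shapes are mice, open markers are GFPpos cells, and bars are mean ± SD over 3 or 4 replicates. Entpd1 lies at 234 CPM or more in every brain replicate and at most at 111 CPM in every blood replicate, while P2rx7 overlaps in all populations.

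The members lie on 8 chromosomes of the mouse build GRCm38 by GENCODE vM21. P2rx7 (chr5:122643911-122691432) and P2rx4 (chr5:122707544-122729738) are neighbours on the plus strand of chromosome 5, and Entpd1 (chr19:40612366-40741602), Nt5e (chr9:88327197-88372092), Adora2a (chr10:75316877-75334784) and Adora2b (chr11:62248984-62266453) are also on plus strands. P2ry6 (chr7:100937630-100974649), Ada (chr2:163726584-163750239) and Slc29a1 (chr17:45585200-45599606) are on minus strands. Another gene's exons overlapped the exons of P2rx7 over 119 bases (Mir8115) and those of Slc29a1 over 275 of 4008 bases (Gm17080, antisense), and the strand setting of the counting is not given in the sources used here, so reads there could not be assigned by strand. To show the promoter of the member that was higher in all 3 GFPneg brain populations and that of the adenosine receptor that was lower in both GFPneg macrophage populations than in Ly6Chigh monocytes, the 250 bases before the transcript start of Entpd1 (chr19:40612116-40612365, plus strand) and Adora2b (chr11:62248734-62248983, plus strand) are given from RefSeq on GRCm38.p6. Capitals mark matches to a motif on either strand.
Entpd1: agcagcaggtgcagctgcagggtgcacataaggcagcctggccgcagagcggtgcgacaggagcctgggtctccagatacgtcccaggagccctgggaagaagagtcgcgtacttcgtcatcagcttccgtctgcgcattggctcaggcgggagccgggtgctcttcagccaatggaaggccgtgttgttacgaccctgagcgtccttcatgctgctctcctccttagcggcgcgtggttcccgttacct
Adora2b: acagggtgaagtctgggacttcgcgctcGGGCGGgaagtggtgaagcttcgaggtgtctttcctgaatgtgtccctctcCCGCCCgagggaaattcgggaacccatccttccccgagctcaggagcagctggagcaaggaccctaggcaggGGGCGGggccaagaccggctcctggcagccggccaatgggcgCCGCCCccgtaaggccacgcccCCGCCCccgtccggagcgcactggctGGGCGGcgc
The motifs searched were the GC box GGGCGG, the ACGTG form of the hypoxia response core, the PU.1 core GAGGAAGT and the cyclic AMP response element TGACGTCA. The GCGTG form of the hypoxia response core was not searched or marked. The Adora2b window held 6 GC boxes and none of the other 3 motifs, and the Entpd1 window held none of the 4. Of 32536 promoter windows of the same length, 33% held a GC box, 16.7% ACGTG, 2.45% GAGGAAGT and 1.56% TGACGTCA. A match is a stretch of letters in this window and says nothing of binding.

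Levels can be compared between genes only per length of exon. The length used was that of all annotated exons of a gene merged, not that of the transcripts expressed. The order depends on this length. Before division by it, Entpd1 averaged 313 CPM over all replicates and P2ry6 296 CPM. Over all 28 replicates the mean level per kilobase was highest for P2ry6, at 102 CPM per kb, followed by Entpd1 at 56.2, P2rx4 at 30.7, Slc29a1 at 24.2, Adora2b at 14.2, P2rx7 at 13.1, Adora2a at 5.17, Ada at 4.18 and Nt5e at 2.47 CPM per kb. P2ry6 led in 7 of the 8 populations, and in GFPpos glioma monocytes Entpd1 led with 76.6 CPM per kb against 71.5 for P2ry6. Adora2b had rank 2 per kilobase in Ly6Chigh monocytes (36.1 CPM per kb) and rank 7 in GFPneg CCR2low macrophages (4.24 CPM per kb). Adora2a, at 1.14 CPM per kb, was the lowest of the 9 in GFPpos CCR2low macrophages.

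P2rx4, the sensitive ATP-gated channel, had 34.9, 6.94 and 66.9 CPM in the Ly6Clow replicates of mice 22, 23 and 24. The Ly6Chigh replicates of the same mice had 98.3, 149 and 129 CPM. GFPneg glioma monocytes had 394, 295 and 312 CPM in mice 22, 24 and 26, and the 16 macrophage replicates lay between 174 and 370 CPM with a median of 249 CPM. No replicate of the GFPneg brain populations overlapped with blood, and the 6.94 CPM of Ly6Clow replicate 23 stood for 18 reads. Against Ly6Clow monocytes P2rx4 was higher by 3.19 ± 0.45 (log2 fold change ± SE) in GFPneg glioma monocytes (edgeR adjusted p = 1.36e-05), by 2.69 ± 0.43 in GFPneg CCR2high macrophages (adjusted p = 5.57e-05) and by 2.55 ± 0.43 in GFPneg CCR2low macrophages (adjusted p = 9.40e-05), and without Ly6Clow replicate 23 by 2.68, 2.17 and 2.04. Against Ly6Chigh monocytes it passed only in GFPneg glioma monocytes, by 1.41 ± 0.42 (adjusted p = 0.0252), while the macrophages gave 0.91 ± 0.40 (adjusted p = 0.122) and 0.77 ± 0.40 (adjusted p = 0.191). The call in glioma monocytes was lost in each of the 6 fits without 1 replicate, with log2 fold changes of 1.20 to 1.48 and adjusted p of 0.0525 to 0.142 there. The macrophages passed against Ly6Chigh in a fit of the compared populations only (adjusted p = 0.0114 for CCR2high and 0.03004 for CCR2low) and without both re-sequenced samples (adjusted p = 0.00437 and 0.0139). In the fit of the compared populations only, the calls against Ly6Clow were lost in glioma monocytes (adjusted p = 0.0746) and CCR2low macrophages (adjusted p = 0.0540). The low level in Ly6Clow also separated the blood populations, by 1.78 ± 0.43 for Ly6Chigh against Ly6Clow (adjusted p = 0.0143). This call was lost without Ly6Chigh replicate 23 (1.70, adjusted p = 0.0652) and without Ly6Clow replicate 22 (1.77, adjusted p = 0.0504). It was also lost in the fit of the compared populations only (1.79, adjusted p = 0.664). Spike-in scaling (2.88, adjusted p = 0.235) and the first library of each sample (1.89, adjusted p = 0.1397) ended it too.

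P2rx7, the channel opened by high ATP, ranged from 23.1 to 105 CPM over the 6 blood replicates and from 43.1 to 143 CPM over the 22 brain replicates. Population means lay between 50.9 ± 33.1 CPM in Ly6Clow monocytes (SD, n = 3) and 104 ± 29.1 CPM in GFPpos CCR2low macrophages (SD, n = 4), and every neighbouring pair in that order overlapped. None of the 13 comparisons passed. Against Ly6Chigh monocytes the differences were -0.29 in GFPneg glioma monocytes, 0.21 in GFPneg CCR2high and 0.19 in GFPneg CCR2low macrophages on the log2 scale, with approximate 95% intervals (normal approximation from the SE) of -1.14 to 0.56, -0.59 to 1.0 and -0.60 to 0.98. Without Ly6Clow replicate 24, in which P2rx7 was 87.6 CPM against 23.1 and 42.0 CPM in the others, P2rx7 passed against Ly6Clow in GFPneg CCR2high macrophages (1.40, adjusted p = 0.0183), GFPneg CCR2low macrophages (1.38, adjusted p = 0.0194) and Ly6Chigh monocytes (1.26, adjusted p = 0.0497).

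P2ry6, the UDP receptor, had 64.6, 123 and 148 CPM in Ly6Clow monocytes, the lowest population. Ly6Chigh monocytes had 217, 284 and 202 CPM, and GFPneg glioma monocytes 308, 357 and 193 CPM. GFPneg CCR2high macrophages reached 295 to 444 CPM and GFPneg CCR2low macrophages 265 to 348 CPM. The Ly6Clow replicates lay below all of these. Against Ly6Clow the log2 fold change was 1.35 ± 0.37 in GFPneg glioma monocytes (edgeR adjusted p = 0.0114), 1.70 ± 0.36 in GFPneg CCR2high (adjusted p = 0.00110) and 1.47 ± 0.35 in GFPneg CCR2low macrophages (adjusted p = 0.00351). In GFPpos glioma monocytes, which were not tested against blood, the 353, 146 and 120 CPM overlapped with Ly6Clow. The call in GFPneg glioma monocytes was lost in the fit of the compared populations only (adjusted p = 0.193), without Ly6Clow replicate 22 (1.08, adjusted p = 0.0635) and without GFPneg glioma monocyte replicate 24 (1.16, adjusted p = 0.0535). Ly6Chigh against Ly6Clow gave 1.06 ± 0.37 and missed the threshold (adjusted p = 0.0849). It passed with the mouse as a replicate block (1.04, adjusted p = 0.0353) and without Ly6Clow replicate 24 (1.40, adjusted p = 0.0201). DESeq2 (1.08, adjusted p = 0.0335) and the sum of all libraries (1.20, adjusted p = 0.0490) also called it. Against Ly6Chigh no brain population passed, with log2 fold changes of 0.29, 0.63 and 0.41.

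Entpd1, which encodes the ATP-degrading CD39, had 27.5, 69.7 and 107 CPM in Ly6Chigh monocytes and 30.7, 111 and 104 CPM in Ly6Clow monocytes. Both blood populations overlapped, and their difference was -0.26 ± 0.39 on the log2 scale (edgeR adjusted p = 0.754). GFPneg glioma monocytes had 332, 307 and 266 CPM, GFPneg CCR2high macrophages 351, 362, 285 and 375 CPM, and GFPneg CCR2low macrophages 336, 285, 361 and 380 CPM. The lowest of all 22 brain replicates, GFPpos glioma monocytes of mouse 26, had 234 CPM, above the highest of the 6 blood replicates at 111 CPM. Against Ly6Chigh the log2 fold changes were 2.14 ± 0.41 in GFPneg glioma monocytes (adjusted p = 5.10e-04), 2.32 ± 0.39 in GFPneg CCR2high (adjusted p = 1.03e-04) and 2.31 ± 0.39 in GFPneg CCR2low macrophages (adjusted p = 9.81e-05). Against Ly6Clow they were 1.87 ± 0.40 (adjusted p = 0.00159), 2.06 ± 0.39 (adjusted p = 3.66e-04) and 2.05 ± 0.39 (adjusted p = 3.67e-04). Within the brain the GFPneg populations differed by at most 0.18, with approximate 95% intervals that reached from -0.67 to 0.90. No fit without 1 replicate ended an Entpd1 call. The macrophage calls against Ly6Clow held under every alternative tried, and all 3 against Ly6Chigh were lost with spike-in scaling, where the log2 fold changes were 1.71, 2.08 and 1.94. Against Ly6Clow that scaling raised the median of all genes to 1.87 in CCR2high and 1.74 in CCR2low macrophages, so it was a weak test there. The call in glioma monocytes against Ly6Clow was lost in the fit of the compared populations only (1.86, adjusted p = 0.121), and that against Ly6Chigh with the first library of each sample (2.07, adjusted p = 0.0753). The latter fit used only the first libraries of Ly6Clow mouse 23, which the main fit left out, and of GFPpos glioma monocytes of mouse 22. Neither sample is in the populations compared there, and their part was not tested.

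Nt5e, which encodes the AMP-degrading CD73, was low throughout. Ly6Chigh replicates of mice 22, 23 and 24 had 8, 0 and 2 reads (4.49, 0 and 0.418 CPM), and only the first was above the floor of 3 reads. Ly6Clow replicates had 19.8, 0 and 9.77 CPM, and GFPneg glioma monocytes 3.51, 25.7 and 42.6 CPM. The 16 macrophage replicates had 11.4 to 45.7 CPM, with a median of 26 CPM. Macrophages therefore lay above every Ly6Chigh replicate, whereas glioma monocytes overlapped with them through mouse 22. Against Ly6Chigh the log2 fold changes were 3.97 ± 1.11 in GFPneg glioma monocytes (edgeR adjusted p = 0.0162), 4.10 ± 1.09 in GFPneg CCR2high (adjusted p = 0.00861) and 4.28 ± 1.10 in GFPneg CCR2low macrophages (adjusted p = 0.00594), sizes that rest on 10 reads in the Ly6Chigh group. T cell, NK cell, endothelial and platelet markers were higher in the same comparisons, and their part was not tested. The call in glioma monocytes was lost without Ly6Chigh replicate 23 (3.40, adjusted p = 0.0916) or 24 (3.37, adjusted p = 0.107) and without GFPneg glioma monocyte replicate 26 (3.23, adjusted p = 0.0843). In CCR2high macrophages it was lost without Ly6Chigh replicate 23 (3.52, adjusted p = 0.0571) or 24 (3.50, adjusted p = 0.0692), and in CCR2low macrophages without Ly6Chigh replicate 24 (3.67, adjusted p = 0.0519). Against Ly6Clow none passed, with 1.28 to 1.58 on the log2 scale. Ly6Chigh against Ly6Clow gave -2.69 ± 1.09 (adjusted p = 0.144), which passed without Ly6Clow replicate 23 (-3.27, adjusted p = 0.0434).

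Adora2a, the high-affinity cyclic AMP-raising adenosine receptor, was highest in blood. Ly6Clow monocytes had 33.0, 53.2 and 39.1 CPM and Ly6Chigh monocytes 33.1, 22.8 and 25.3 CPM. GFPneg glioma monocytes had 17.6, 22.5 and 27.1 CPM, GFPneg CCR2high macrophages 11 to 14.2 CPM and GFPneg CCR2low macrophages 2.31 to 10.5 CPM. The 3 GFPneg brain populations did not overlap with each other, nor did macrophages with blood. Adora2a was lower in GFPneg CCR2low macrophages than in Ly6Chigh monocytes by a log2 fold change of -1.87 ± 0.50 (edgeR adjusted p = 0.00873) and than in Ly6Clow monocytes by -2.50 ± 0.51 (adjusted p = 7.66e-04). GFPneg CCR2high macrophages passed against Ly6Clow, at -1.73 ± 0.49 (adjusted p = 0.0127), and gave -1.11 ± 0.49 against Ly6Chigh (adjusted p = 0.129). With spike-in scaling the difference between CCR2high macrophages and Ly6Clow turned to 0.14 and that between CCR2low macrophages and Ly6Clow shrank to -0.57 (adjusted p = 0.669), where the medians of all genes were 1.87 and 1.74. Both calls against Ly6Clow were also lost in the fit of the compared populations only (adjusted p = 0.127 and 0.0730) and with the first library of each sample (adjusted p = 0.511 and 0.197). The latter fit includes the left-out first library of Ly6Clow mouse 23, which had 0 reads of Adora2a. CCR2high macrophages passed against Ly6Chigh in the fit of the compared populations only (adjusted p = 0.0297) and without both re-sequenced samples (adjusted p = 0.0479). GFPneg CCR2low macrophages against GFPneg glioma monocytes gave -1.60 ± 0.50 and did not pass (adjusted p = 0.156), but passed without both re-sequenced samples (-1.61, adjusted p = 0.0341).

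Adora2b, the low-affinity adenosine receptor, had 48.3, 80.2 and 71.5 CPM in Ly6Chigh monocytes and 50.2, 55.1 and 109 CPM in GFPneg glioma monocytes. Ly6Clow monocytes had 27.8, 9.64 and 31.7 CPM. GFPneg CCR2high macrophages had 8.83, 13.8, 13.2 and 24.2 CPM, and GFPneg CCR2low macrophages 6.06, 9.20, 6.01 and 10.02 CPM. Both macrophage populations lay below every Ly6Chigh and GFPneg glioma monocyte replicate. Against Ly6Chigh the log2 fold change was -2.13 ± 0.56 in GFPneg CCR2high (edgeR adjusted p = 0.00775) and -3.08 ± 0.58 in GFPneg CCR2low macrophages (adjusted p = 3.18e-04), whereas glioma monocytes gave 0.10 with an approximate 95% interval of -1.05 to 1.25. GFPneg CCR2low macrophages were lower than GFPneg glioma monocytes by -3.18 ± 0.58 (adjusted p = 0.00366). GFPneg CCR2high macrophages against the same monocytes gave -2.23 ± 0.56, which missed the threshold (adjusted p = 0.105) and passed with the mouse as a replicate block (-2.23, adjusted p = 0.0295). Against Ly6Clow, CCR2low macrophages passed narrowly at -1.55 ± 0.57 (adjusted p = 0.0489). That call was lost in 6 of the 7 fits without 1 replicate, at log2 fold changes of -1.69 to -1.23 and adjusted p of 0.0608 to 0.130, and stayed without Ly6Clow replicate 23 (-1.93). It was also lost with spike-in scaling (-0.30, adjusted p = 0.8292), with no filter (adjusted p = 0.108), with DESeq2 size factors (adjusted p = 0.0656) and in the fit of the compared populations only (adjusted p = 0.281). GFPneg glioma monocytes against Ly6Clow gave 1.63 ± 0.61 (adjusted p = 0.0614). This passed without Ly6Clow replicate 24 (1.94, adjusted p = 0.0416) and with DESeq2 (1.68, adjusted p = 0.0268).

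Ada, which encodes the enzyme that deaminates adenosine to inosine, was at 2.25 to 19.7 CPM in blood and 2.24 to 15.8 CPM in the brain, so 4 to 67 reads stood behind each value. Ly6Chigh replicates had 2.25, 4.10 and 2.30 CPM. GFPneg CCR2low macrophages had 9.36, 15.8, 6.94 and 11.6 CPM, above all of them. The comparison of these 2 populations was the 1 call for Ada, at a log2 fold change of 1.93 ± 0.67 (edgeR adjusted p = 0.0422). It was lost in 6 of the 7 fits without 1 replicate (adjusted p = 0.0533 to 0.162) and stayed only without GFPneg CCR2low replicate 24. T cell markers were also higher in that population, at 928 to 1490 against 27.5 to 207 CPM, and their part was not tested. GFPneg glioma monocytes against Ly6Chigh gave 1.67 ± 0.70 (adjusted p = 0.124), which passed without both re-sequenced samples (1.67, adjusted p = 0.0406). A level of 19.7 CPM in Ly6Clow replicate 23 stood against 3.30 and 5.62 CPM in the other Ly6Clow replicates.

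Slc29a1, which encodes the equilibrative transporter that moves adenosine across the membrane, had 43.3, 29.3 and 46.4 CPM in Ly6Chigh monocytes. Ly6Clow monocytes had 129, 182 and 119 CPM, with no overlap. GFPneg glioma monocytes had 37.1, 50.9 and 49.7 CPM, within or just above the Ly6Chigh range. The GFPneg macrophages had 91.1 to 108 CPM (CCR2high) and 75.3 to 128 CPM (CCR2low), above both. Ly6Chigh against Ly6Clow gave a log2 fold change of -1.85 ± 0.28 (edgeR adjusted p = 1.95e-04), and GFPneg glioma monocytes against Ly6Clow -1.64 ± 0.27 (adjusted p = 1.16e-04), but with spike-in scaling these turned to 0.26 and 0.20, where the medians of all genes were 1.69 and 1.70. Both were also lost in the fit of the compared populations only (adjusted p = 0.328 and 0.0874) and with the first library of each sample (adjusted p = 0.548 and 0.530). The latter fit includes the left-out first library of Ly6Clow mouse 23, which had 0 reads of Slc29a1. Against Ly6Chigh, Slc29a1 was higher in GFPneg CCR2high by 1.32 ± 0.26 (adjusted p = 5.91e-04) and in GFPneg CCR2low macrophages by 1.36 ± 0.26 (adjusted p = 3.70e-04), and glioma monocytes gave 0.21 with an approximate 95% interval of -0.33 to 0.74. With the first library of each sample both macrophage calls were lost (adjusted p = 0.332 and 0.291). GFPneg CCR2low macrophages exceeded GFPneg glioma monocytes by 1.16 ± 0.26 (adjusted p = 0.0217). This call was lost without GFPneg glioma monocyte replicate 22 (1.03, adjusted p = 0.148), 24 (1.25, adjusted p = 0.0789) or 26 (1.21, adjusted p = 0.0558), and without GFPneg CCR2low replicate 24 (1.05, adjusted p = 0.0832) or 26 (1.05, adjusted p = 0.0601). It was also lost with no filter (adjusted p = 0.133) and in the fit of the compared populations only (adjusted p = 0.0593). Spike-in scaling (1.12) and the first library of each sample (1.17, adjusted p = 0.9998) ended it too. For GFPneg CCR2high macrophages the difference was 1.11 ± 0.26 and missed the threshold (adjusted p = 0.0777), but passed with the mouse as a replicate block (1.16, adjusted p = 0.0205).

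**Figure D2:**
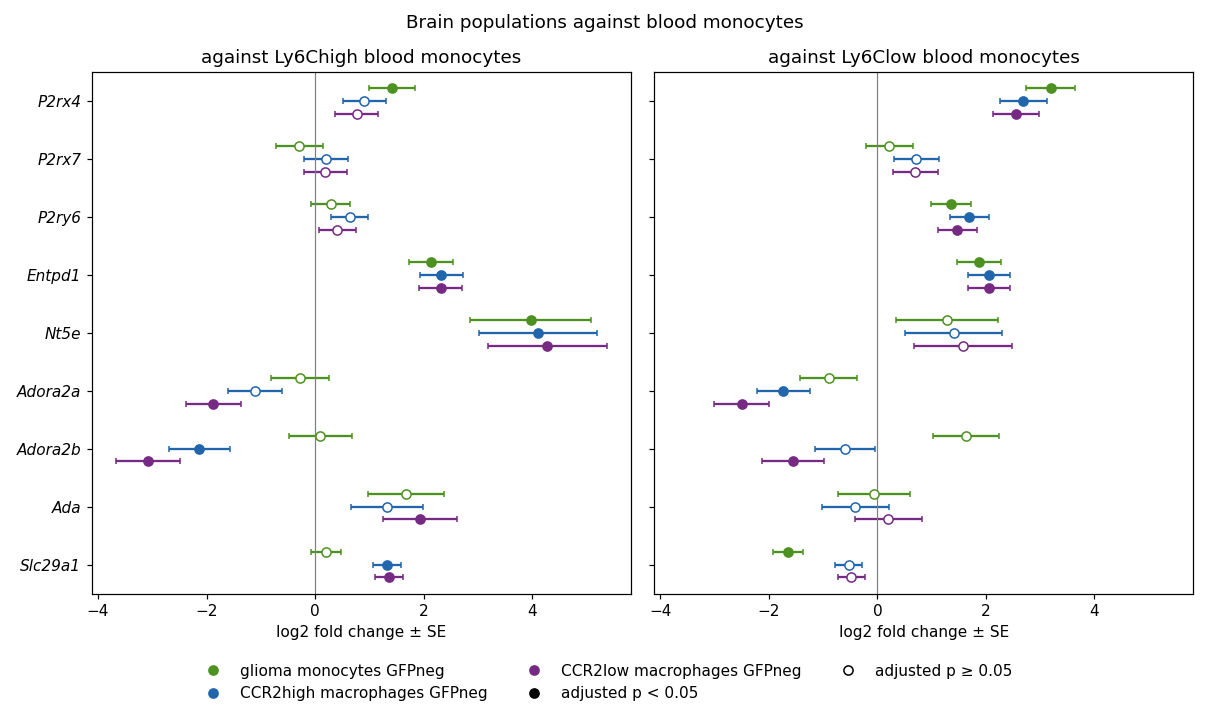
Log2 fold change ± SE (edgeR) of the 9 members in GFPneg glioma monocytes, CCR2high macrophages and CCR2low macrophages against Ly6Chigh (left) and Ly6Clow (right) blood monocytes; filled points passed an adjusted p of 0.05. Entpd1 is filled in all 6 comparisons, between 1.87 and 2.32, and P2rx7 is open in all.

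Counted by comparison, the members stood as follows beside all genes. In GFPneg glioma monocytes against Ly6Chigh, 3 of 9 were higher and 0 lower, where 11.1% and 2.68% of all genes were. In GFPneg CCR2high macrophages against Ly6Chigh, 3 were higher and 1 lower, beside 12.7% and 5.14%. In GFPneg CCR2low macrophages against Ly6Chigh, 4 were higher and 2 lower, beside 14.1% and 6.09%. Without 1 replicate the count in glioma monocytes fell to 1 or 2 of 9. Against Ly6Clow, GFPneg glioma monocytes had 3 higher and 1 lower, beside 13% and 5.51% of all genes. GFPneg CCR2high macrophages had 3 higher and 1 lower, beside 14.7% and 8.39%, and GFPneg CCR2low macrophages 3 higher and 2 lower, beside 15% and 8.35%. The comparisons with one blood population share its samples. Ly6Chigh against Ly6Clow had 1 higher and 1 lower, beside 1.96% and 3.65%, a count that ranged from 1 to 4 when 1 replicate was left out (4 without Ly6Clow replicate 24, from P2rx7 and P2ry6). The shares of all genes in the fits without 1 replicate are not given here. The median log2 fold change of the members was 0.29, 0.91 and 0.77 in the comparisons with Ly6Chigh, where that of all genes was 0.12, 0.15 and 0.17, and 1.28, 0.72 and 0.70 with Ly6Clow, where that of all genes was 0.24, 0.25 and 0.26.

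Within the brain few genes differed. GFPneg CCR2low macrophages against GFPneg glioma monocytes called 1 member higher (Slc29a1) and 1 lower (Adora2b), beside 0.147% and 1.06% of all genes. GFPneg CCR2high macrophages against the same monocytes called none, beside 0% higher and 0.182% lower. At an unadjusted p under 0.05 were 2 of 9, beside 622 of all 11566 genes. With the replicate block, with DESeq2 and in a fit of the compared populations only, 2 were called. The shares of all genes called in those fits are not given here. Between GFPneg CCR2low and CCR2high macrophages edgeR called 0 of 9 and 0% of all genes, with no member at an unadjusted p under 0.05, and DESeq2 also called none. Adora2a and Adora2b gave -0.77 ± 0.47 and -0.95 ± 0.53 there, and Slc29a1 gave 0.05 with an approximate 95% interval of -0.41 to 0.50.

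Uptake of tumour membrane was examined by comparing GFPpos with GFPneg cells. In glioma monocytes the edgeR test called 0 of 9 members and 0% of all genes. At an unadjusted p under 0.05 were 4 members, beside 739 of all 11566 genes. The 4 members were Slc29a1, P2rx4, Adora2a and Adora2b. Slc29a1 had 93.4, 141 and 149 CPM in GFPpos cells of mice 22, 24 and 26, and 37.1, 50.9 and 49.7 CPM in the GFPneg cells of the same mice. The ranges did not overlap, and GFPpos cells were higher in 3 of 3 mice, by 1.31 to 1.57 on the log2 scale. The log2 fold change was 1.48 ± 0.27, and its adjusted p of 0.147 was the smallest of all 11566 genes. It passed with DESeq2 (adjusted p = 7.34e-04), without GFPpos replicate 22 (1.64, adjusted p = 0.0488) and when both re-sequenced samples were left out, a choice made after seeing the data (1.64, adjusted p = 0.0110). Over its 15 alternatives the log2 fold change was 0.23 to 1.64 and the adjusted p 7.34e-04 to 0.994, the lowest value being that with spike-in scaling, where the median of all genes was -1.37. The spike-in share of the GFPpos replicates reached 5.16% in mouse 24 and 8.68% in the first of the 2 libraries of mouse 22, against at most 0.742% in the GFPneg replicates. Its part in the difference was not tested.

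P2rx4, Adora2a and Adora2b had lower values in GFPpos than in GFPneg glioma monocytes. P2rx4 had 90.1, 215 and 188 CPM against 394, 295 and 312 CPM in GFPneg cells (log2 fold change -1.03 ± 0.42, edgeR adjusted p = 0.707). Adora2a had 3.47, 15 and 12.4 CPM against 17.6, 22.5 and 27.1 CPM (-1.15 ± 0.54, adjusted p = 0.759). Adora2b had 4.08, 28.6 and 38.3 CPM against 50.2, 55.1 and 109 CPM (-1.60 ± 0.61, adjusted p = 0.661). Each was lower in GFPpos cells of 3 of 3 mice, the groups did not overlap, and none passed. The share of all genes whose groups did not overlap was not counted, here or for Slc29a1. Entpd1 had 368, 680 and 234 CPM in GFPpos and 332, 307 and 266 CPM in GFPneg glioma monocytes, a spread too wide to separate them (0.50 ± 0.39, adjusted p = 0.882). The 2 libraries behind the GFPpos replicate of mouse 22 differed: the first had 0 reads of P2rx7, Nt5e, Adora2a and Ada, and 163 of Entpd1, and the second 215, 66, 17, 11 and 1642 reads.

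**Figure D3:**
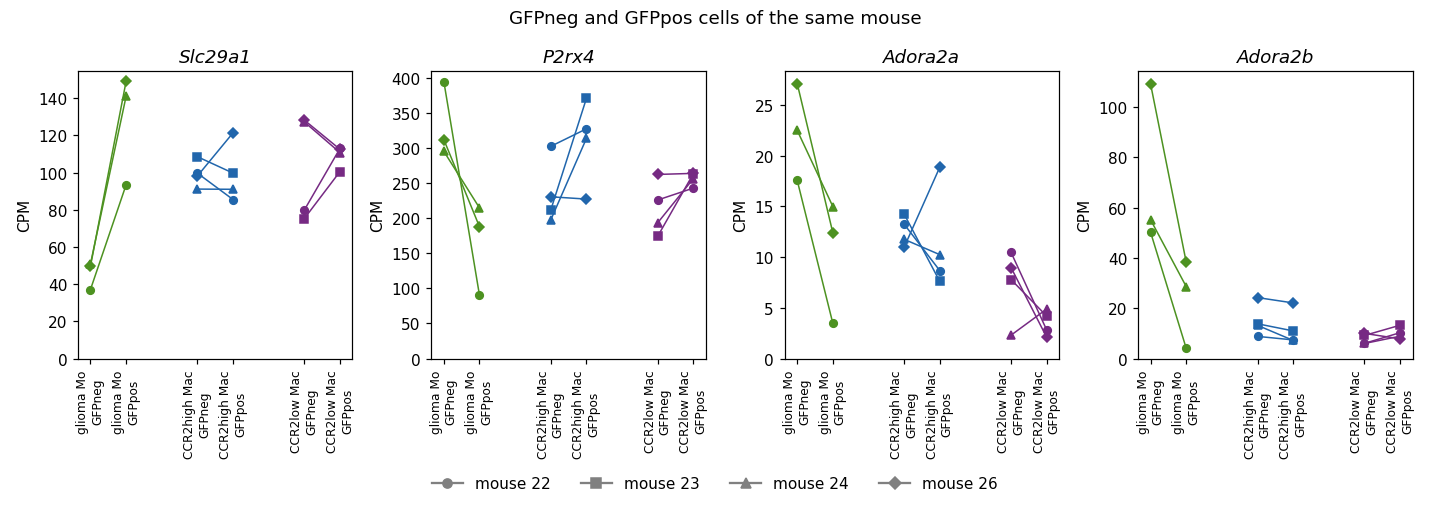
CPM of Slc29a1, P2rx4, Adora2a and Adora2b in GFPneg and GFPpos cells, with a line for each mouse and linear axes that start at 0. In glioma monocytes Slc29a1 is at most 50.9 CPM in GFPneg and at least 93.4 CPM in GFPpos cells, and the other 3 genes lie lower in GFPpos cells of all 3 mice, while in macrophages Slc29a1 lies higher in GFPpos cells of 1 of 4 (CCR2high) and 2 of 4 mice (CCR2low).

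In macrophages 0 of 9 members passed between GFPpos and GFPneg cells, in CCR2high (0% of all genes, no member at an unadjusted p under 0.05) and in CCR2low cells (0% of all genes, 1 member at an unadjusted p under 0.05), and DESeq2 called none in either. Of all 11566 genes, 69 were under that unadjusted p in CCR2high and 184 in CCR2low cells. Slc29a1 differed by 0.00 in CCR2high and 0.09 in CCR2low macrophages, with approximate 95% intervals of -0.45 to 0.45 and -0.36 to 0.54. The difference between its GFP effect in glioma monocytes and that in CCR2high macrophages was 1.47 ± 0.36 on the log2 scale, and 1.39 ± 0.36 for CCR2low macrophages, neither of which passed (edgeR adjusted p = 1 for both). Adora2a was the 1 member under an unadjusted p of 0.05 in CCR2low macrophages, with 2.81, 4.19, 4.89 and 2.09 CPM in GFPpos and 10.5, 7.79, 2.31 and 8.97 CPM in GFPneg cells of mice 22, 23, 24 and 26. It was lower in GFPpos cells of 3 of 4 mice (-1.04 ± 0.49, adjusted p = 1). Entpd1 was higher in GFPpos than in GFPneg CCR2high macrophages of all 4 mice, at 419 to 457 against 285 to 375 CPM, without passing (0.37 ± 0.34, adjusted p = 1).

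Beyond the 9 members, 49 other genes of nucleotide release, sensing and breakdown were listed, of which 31 passed the filter on low counts and 19 passed the test in at least 1 of the 13 comparisons, beside 37.2% of all genes. Against Ly6Chigh monocytes 9, 7 and 8 of the 31 were higher and 0, 1 and 2 lower in GFPneg glioma monocytes, CCR2high macrophages and CCR2low macrophages, where 11.1%, 12.7% and 14.1% of all genes were higher and 2.68%, 5.14% and 6.09% lower. Against Ly6Clow 13, 13 and 9 were higher and 0, 1 and 1 lower, where 13%, 14.7% and 15% of all genes were higher and 5.51%, 8.39% and 8.35% lower. The 19 were Slc29a3, Cd38, Pnp, Enpp2, P2ry14, Nt5c3, Bst1, Enpp4, P2ry10, Ampd2, Dpp4, Ampd3, Enpp1, Adora3, P2ry2, Slc17a9, Adora1, Pnp2 and Slc29a2. With spike-in scaling, the medians of all genes against Ly6Clow rose to 1.70 to 1.87, so directions given for that population are those of the main scaling.

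Among the receptors and ectoenzymes of the list, several were at or near the floor in Ly6Chigh, in Ly6Clow or in both blood populations. P2ry14, the UDP-glucose receptor, averaged 2.23 CPM in Ly6Chigh and 0.592 CPM in Ly6Clow monocytes, and 65.6 to 108 CPM in the 6 brain populations. Its log2 fold change in GFPneg glioma monocytes was 5.52 ± 0.53 against Ly6Chigh (edgeR adjusted p = 4.60e-08) and 7.19 ± 0.60 against Ly6Clow (adjusted p = 3.46e-09). P2ry10, a lysophosphatidylserine receptor by current knowledge despite its name, averaged 0.605 CPM in Ly6Chigh, 20.9 CPM in Ly6Clow and 57.5 CPM in GFPneg glioma monocytes (6.17 ± 0.89 against Ly6Chigh, adjusted p = 1.79e-05). These fold changes rest on 20 reads of P2ry14 in the Ly6Chigh group, 6 reads of P2ry14 in the Ly6Clow group and 7 reads of P2ry10 in the Ly6Chigh group, so their sizes depend on few reads. Enpp2, which encodes the lysophospholipase autotaxin, had no read in any of the 6 blood replicates and averaged 132 CPM in GFPneg glioma monocytes, which is at least 97.5-fold above the floor of 3 reads per library in Ly6Chigh. It averaged 50.7 CPM in GFPneg CCR2high and 47.5 CPM in GFPneg CCR2low macrophages, where the CCR2low replicates ran from 0.925 to 105 CPM. Cd38, an NAD-degrading ectoenzyme, averaged 8.24 and 10.6 CPM in Ly6Chigh and Ly6Clow and 226, 292 and 271 CPM in the GFPneg brain populations, all 6 differences passing (log2 fold changes 4.35 to 5.17). Enpp4, which degrades dinucleotide phosphates, averaged 2.82 CPM in Ly6Chigh, 12.3 CPM in Ly6Clow and 41.4 to 59.5 CPM in the GFPneg brain populations. Against Ly6Clow it passed only in GFPneg CCR2high macrophages (2.25 ± 0.76, adjusted p = 0.0338).

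Other listed genes take part in the handling of nucleosides and nucleotides. Slc29a3, a nucleoside transporter of lysosomes and mitochondria related to Slc29a1, averaged 136 CPM in Ly6Chigh, 76.7 CPM in Ly6Clow and 334 CPM in GFPneg glioma monocytes. It was higher in glioma monocytes than in Ly6Chigh by 1.29 ± 0.38 (edgeR adjusted p = 0.0234) and than in Ly6Clow by 2.12 ± 0.39 (adjusted p = 3.59e-04). Pnp, purine nucleoside phosphorylase, averaged 336 CPM in GFPneg glioma monocytes and 138 CPM in Ly6Clow (1.28 ± 0.36, adjusted p = 0.0138), and Nt5c3, a cytosolic 5'-nucleotidase, 102 CPM against 33.0 CPM in Ly6Chigh (1.64 ± 0.49, adjusted p = 0.0244). Ampd3, an AMP deaminase, was lower in macrophages, averaging 108 CPM in Ly6Chigh and 11.3 CPM in GFPneg CCR2high (-3.26 ± 0.87, adjusted p = 0.00946) and 13.2 CPM in GFPneg CCR2low macrophages (-3.02 ± 0.87, adjusted p = 0.0136). Its relative Ampd2 averaged 54.8 CPM in Ly6Chigh and 8.88 CPM in Ly6Clow (2.62 ± 0.71, adjusted p = 0.0277). Bst1, a relative of Cd38, averaged 69.1 CPM in GFPneg glioma monocytes and 17.2 CPM in GFPneg CCR2low macrophages (-2.02 ± 0.50, adjusted p = 0.0409), the 1 listed gene that passed between brain populations. Dpp4, the peptidase that anchors adenosine deaminase in some species, averaged 96.4 CPM in Ly6Clow and 24.4 CPM in GFPneg CCR2low macrophages (-1.97 ± 0.54, adjusted p = 0.00987).

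**Figure D4:**
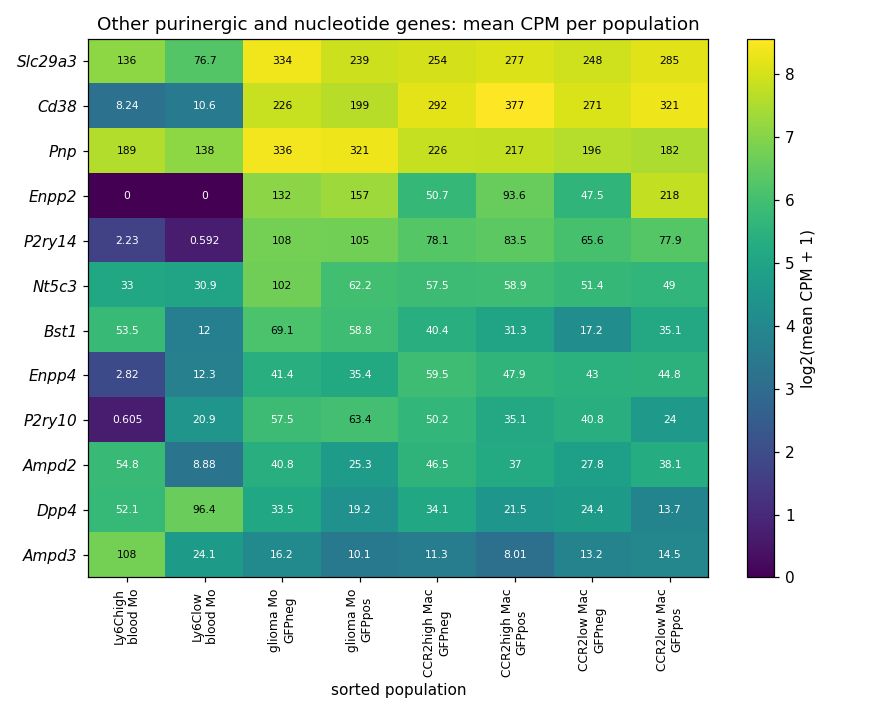
Mean CPM (printed in each cell) of the 12 listed genes with the highest mean among those that passed in at least 1 comparison, coloured by log2(mean CPM + 1) over the 8 populations. Enpp2 is at 0 in both blood populations, and P2ry14, Cd38 and Enpp4 average at most 12.3 CPM there and at least 35.4 CPM in every brain population.

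Likeness was described by Spearman's rho of log2 CPM over the 28 replicates, which share mice, sorts and library preparation. Adora2a and Adora2b had a rho of 0.708 with each other, the highest between members, and Entpd1 had -0.638 with Adora2a and -0.512 with Adora2b. Entpd1 and P2rx4 had a rho of 0.575, as P2rx4 and P2ry6 had one of 0.574. Of 8134 genes that averaged 10 CPM or more, the 3 most like Entpd1 were Pld3 and Renbp (0.870 and 0.870) and Hvcn1 (0.846). Those most like Adora2a were Cd44 (0.880), Napsa (0.849) and Ikbkb (0.847), and those most like Adora2b were Plod3 (0.873), Ahnak (0.835) and Ezr (0.799). For P2rx4 they were Fgl2 (0.823), Adap2 (0.814) and Fth1 (0.793), for P2rx7 Dnmt1 (0.881), Eif4g1 (0.861) and Golga3 (0.860), and for P2ry6 Anpep (0.858), Vdac2 (0.828) and Dnaaf3 (0.827). Nt5e was most like Rilpl2 (0.787), Slc7a8 (0.786) and Hdac6 (0.778), and Slc29a1 most like Decr1 (0.727), mt-Nd1 (0.71) and Fcgrt (0.696). The genes most like Ada were 2210016L21Rik at 0.697, Phf6 at 0.661 and Nmnat1 at 0.639. Counts of Ada were low, and their part in these values was not tested.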

How the data were processed

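RNA of sorted cells was amplified from poly(A) transcripts with ERCC spike-in RNA added and sequenced from 30 libraries. The deposited files hold whole-number read counts per gene, which the authors made by aligning reads to mm10 with STAR, removing duplicates with Picard 1.8.4, and counting with HTSeq against GENCODE genes. The authors' own tests used DESeq2 in R 3.2.3, and no result of theirs was used. The strand setting of the counting is not given in the sources used here.

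The members and the pathway, marker and motif lists were chosen with earlier results of these data known. Named were all 9 members, every gene of the pathway list called in at least 1 comparison, with values for at most the 12 highest by mean CPM, and for each member the 3 most like genes. Libraries with fewer than 6000 genes of at least 5 reads were left out (1 library), and libraries of 1 sample were summed, giving 28 replicates. Reads that fell in no gene (6.28 to 17.4% per library) or in several (1.58 to 1.90%) and the spike-ins (0.284 to 13.3% of gene and spike-in reads per replicate) stayed out of library sizes. Gene counts were filtered with filterByExpr, scaled with TMM and fitted over all 8 populations at once with edgeR 4.0.16 in R 4.3.3 (robust quasi-likelihood F test, two-sided, Benjamini-Hochberg adjustment over 11566 genes, threshold 0.05). The SE is the size of the log2 fold change divided by the square root of F. CPM are gene counts scaled to the TMM-adjusted library size. Exon lengths and positions came from GENCODE vM21, which held 41813 of 45317 symbols and all 9 members. Promoters came from RefSeq, which held 7 of the 9 members.

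The floor of 3 counts covers counting error only. Replicates of a population differed by more than sampling noise (chi-square of the gene counts divided by its degrees of freedom, 7.71 to 95.0). Sample numbers are mouse numbers, so the same number marks the same animal. Deviations from the population mean correlated with a median r of 0.136 between samples of the same mouse (86 pairs) and -0.0303 between mice (256 pairs). Alternatives were DESeq2 1.42.0 and its size factors, spike-in scaling, no filter, the compared populations only, the mouse as a replicate block, other uses of the re-sequenced libraries and leaving out each replicate. The fit with the first library of each sample includes the library that the main fit left out and holds no second library. GFPpos glioma monocytes of mouse 22 then rest on their first library alone. Which of these changes altered a call was not tested. The scripts were tested on simulated data.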

Additional observations from a re-analysis of the deposited data

Results flagged for a closer look

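Among the members, 1 signal lay in data the comparisons did not use. The left-out first library of Ly6Clow monocytes of mouse 23 held 36 reads of Adora2b (33.0 CPM without TMM scaling), above the floor of 3 reads, while each of the other 8 members had 0 or 1 read there. The second library of the same sample, which was used, held 25 Adora2b reads (9.29 CPM). In 36 population and gene combinations with 4 replicates, no replicate lay far enough from the others to be singled out.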

How the results depend on the processing

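Of the 30 calls of members over 13 comparisons, 4 held in every alternative run (P2rx4, P2ry6 and Entpd1 in GFPneg CCR2high macrophages and Entpd1 in GFPneg CCR2low macrophages, all against Ly6Clow), 5 more were lost with spike-in scaling alone, and 21 in total were lost with it. The 4 were all higher than in Ly6Clow, where spike-in scaling raised the median of all genes to 1.87 and 1.74 in these macrophages. For such calls that scaling was a weak test. That scaling called 0 members in each of the 3 comparisons with Ly6Chigh, 3 in GFPneg CCR2low macrophages against Ly6Clow, 0 between blood populations, 0 in GFPneg CCR2low macrophages against glioma monocytes and 1 over all populations. It turned Slc29a1 in GFPneg glioma monocytes against Ly6Clow to 0.20, Adora2a in GFPneg CCR2high macrophages against Ly6Clow to 0.14 and Slc29a1 in Ly6Chigh against Ly6Clow to 0.26. Over all genes it moved the median log2 fold change against Ly6Clow from 0.24, 0.25 and 0.26 to 1.70, 1.87 and 1.74, between blood populations from 0.02 to 1.69, and for GFPpos against GFPneg glioma monocytes from 0.07 to -1.37. The cause was not tested.

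With no filter, GFPneg CCR2low macrophages against glioma monocytes had 1 member called. DESeq2 called 2 in GFPneg CCR2high macrophages against glioma monocytes and 1 in GFPpos glioma monocytes. It called 5 in glioma monocytes against Ly6Clow, with Adora2b added, 3 between blood populations, with P2ry6 added, and 7 over all populations. With the compared populations only, the counts were 0 for glioma monocytes and 2 for CCR2low macrophages against Ly6Clow, 0 between blood populations, and 2 and 1 for CCR2high and CCR2low macrophages against glioma monocytes. The fit with the replicate block called 2 for CCR2high macrophages against glioma monocytes, where none was called without it, and beside the changes given with P2ry6, Adora2b and Slc29a1 it changed no other call. With the first library of each sample the counts were 0 and 3 for glioma monocytes and CCR2low macrophages against Ly6Chigh, 2 and 3 for the same against Ly6Clow, 0 between blood populations, 1 for CCR2low macrophages against glioma monocytes and 3 over all populations. This setting takes in the first library of Ly6Clow mouse 23, which the main fit left out, and drops the second libraries of both re-sequenced samples. The part of either change was not tested. Beside the losses given with the genes, this setting ended 2 calls in glioma monocytes against Ly6Chigh, P2rx4 (adjusted p = 0.238) and Nt5e (0.0595). The Nt5e calls in macrophages stayed. In CCR2low macrophages against Ly6Chigh it ended the calls of Adora2a (0.176) and Ada (0.186). Against Ly6Clow it ended those of P2ry6 in glioma monocytes (0.0904) and CCR2low macrophages (0.0525). Leaving out both re-sequenced samples, chosen after seeing the data, gave 2 for CCR2high macrophages against glioma monocytes and 1 for GFPpos glioma monocytes, and raised the counts against Ly6Chigh from 3, 4 and 6 to 4, 6 and 7, between blood populations from 2 to 3, for CCR2low macrophages against glioma monocytes from 2 to 3 and over all populations from 6 to 7. Leaving out 1 replicate gave 1 to 2 for glioma monocytes against Ly6Chigh, 1 to 4 between blood populations, 1 to 2 for CCR2low macrophages against glioma monocytes and 0 to 1 for GFPpos glioma monocytes. The shares of all genes called under the alternatives are not given here. Changes in these counts can therefore not be read as particular to the members. Nt5e and Ada rest on few reads, with Nt5e at or under the floor in 2 Ly6Chigh replicates.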
